A study of Homo sapiens with 8 samples.

Results

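The genes described here are 32 enzymes and regulators of cholesterol and fatty acid synthesis, taken by gene symbol from a table of 15811 genes; all 32 were in it. They were measured by total RNA sequencing of H9, a long-established line of human embryonic stem cells, in 4 EXT1-/- libraries and 4 wild-type (WT) libraries. EXT1 encodes a glycosyltransferase that builds heparan sulfate, and the EXT1-/- cells are 1 line made with CRISPR/Cas9. Both groups were kept in E8 medium on vitronectin and then moved to RPMI-1640 with 6 µM CHIR-99021, an inhibitor of GSK3, for 28 h to induce mesendoderm, so no group without induction enters the comparison. The labels do not say that the 4 libraries of a group were grown as separate cultures; p-values therefore refer only to the scatter among libraries, which may be technical.

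Cells make cholesterol from acetyl-CoA through mevalonate, isoprenoid diphosphates, squalene and lanosterol, and they make fatty acids from the same acetyl-CoA through malonyl-CoA. Transcription of both routes is driven by the SREBP factors, which are held in the endoplasmic reticulum by INSIG proteins when sterols are plentiful and are cut and released to the nucleus when sterols are scarce. SREBF2 encodes the form best known for sterol genes, and SREBF1 encodes forms known for fatty acid genes.

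In EXT1-/- cells, 12 of the 32 genes were lower than in WT cells, 1 was higher and 19 did not pass the test (limma on log2 values, adjusted p under 0.05 over all genes). The share of lower genes was 37.5%, where 16.8% of all genes were lower; the share of higher genes was 3.125%, where 15.2% of all genes were higher. The falls were moderate: the strongest that passed was ACSS2, 33.3% below WT, and the weakest was FADS1, 10.7% below WT. The median log2 fold change was -0.22 over the 32 genes and 0.01 over all genes, and 24 of the 32 (75%) lay below 0, against 48.5% of all genes. Summed over the 32 genes, EXT1-/- replicates 1 to 4 held 153804, 146771, 146940 and 151864 normalised counts, against 171433, 176599, 179402 and 180654 in WT replicates 1 to 4. The sums did not overlap, and WT replicate 1 was the lowest WT library. SCD alone held 30455 to 31801 of these counts in EXT1-/- libraries and 42652 to 44695 in WT libraries, so the sums lean on this 1 gene. In bulk RNA, fewer cells of a type and less RNA per cell cannot be told apart.

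Checks on the libraries come before the single genes. EXT1 itself had 890 to 980 normalised counts in EXT1-/- libraries and 1464 to 1776 in WT libraries, a log2 fold change of -0.76 ± 0.07 (SE; limma adjusted p = 9.2e-05). Library totals were 37737058 to 40017763 normalised counts. The share of mitochondrially encoded transcripts divided the libraries into a high set (EXT1-/- replicates 1 and 4 and WT replicate 1, 9.18% to 10.7%) and a low set (the other 5, 5.30% to 5.43%); results with the set as a term follow after the single genes. The summed level of 5 mesendoderm markers, all in the table, was 11256 to 17417 in EXT1-/- libraries and 31086 to 35294 in WT libraries, and 4 of the 5 were lower. For 5 pluripotency markers the sums were 110828 to 118709 in EXT1-/- libraries and 156624 to 161276 in WT libraries, again with 4 lower. The other, LIN28A, did not pass (log2 fold change 0.08, limma adjusted p = 0.220). LIN28A held 65181 to 70656 of these sums in EXT1-/- libraries and 63160 to 65969 in WT libraries. Of 7 neuroectoderm markers 5 were in the table, SOX1 and PAX6 not among them, and 4 were higher and 1 was lower. Their sums were 11810 to 17505 in EXT1-/- libraries and 4698 to 8634 in WT libraries. SOX2, which pluripotent cells also express, held most of these sums, with 8920 to 13929 in EXT1-/- libraries and 4430 to 8347 in WT libraries. Its log2 difference between the high and the low library set was 0.59. POU3F2 and OTX1 averaged under 1 CPM in WT libraries and OTX2 in EXT1-/- libraries, so the place of these 3 in the table rests on the other group. Of 7 fibroblast markers 4 were in the table, with sums of 5026 to 5669 in EXT1-/- libraries and 8418 to 9156 in WT libraries, all 4 lower. Of 7 hepatocyte markers only SERPINA1 was in the table, at 33 to 59 in EXT1-/- libraries and 2 to 14 in WT libraries, the WT mean being under 1 CPM. Of 6 adipocyte markers 0 were in the table. The part of these marker differences in the lipid gene results was not tested.

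**Figure D1:**
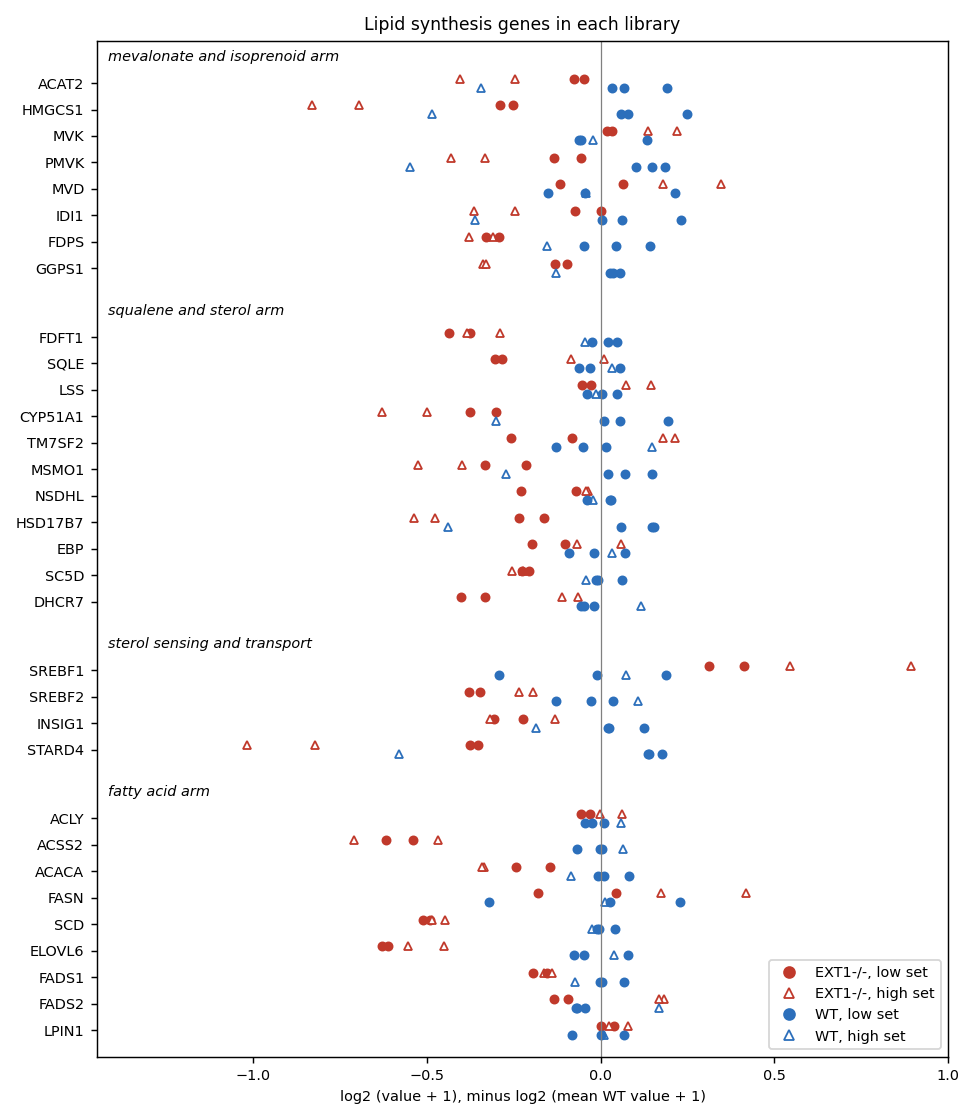
Level of each of the 32 genes in each library, as log2(value + 1) minus log2(mean WT value + 1), with EXT1-/- libraries (red) drawn above WT libraries (blue) and open triangles for the high mitochondrial set. All 4 EXT1-/- points of SCD, ELOVL6 and ACSS2 lie left of all WT points, those of SREBF1 lie right of them, and for STARD4 and HMGCS1 the triangles lie furthest left in each group.

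Promoters of the genes are shown first, because SREBP factors act there together with NF-Y and SP1. RefSeq windows (GRCh38.p14) from 250 bases before to 50 bases after the start were matched for 28 of the 32 genes; ACAT2, FDFT1, SQLE and FASN were the others. The windows were searched on both strands for the SREBP element TCACNCCAC, its core CACCCCAC, the E-box type element TCACNTGA, the NF-Y box CCAAT and the SP1 box GGGCGG. The first motif and its core overlap where the N is a C. The 3 windows that held an SREBP motif are printed first, and 3 windows of genes that were lower and carry several CCAAT boxes follow. Capitals mark the SREBP motifs and the CCAAT boxes, which read ATTGG on the other strand. SREBF2 (chr22:41832960-41833015), INSIG1 (chr7:155297696-155297841), EBP (chrX:48521605-48521794), SCD (chr10:100346992-100347063), MSMO1 (chr4:165327472-165327651) and FDPS (chr1:155308678-155308831) all lie on the plus strand.
SREBF2: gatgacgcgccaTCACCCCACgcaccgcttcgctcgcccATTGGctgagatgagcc
INSIG1: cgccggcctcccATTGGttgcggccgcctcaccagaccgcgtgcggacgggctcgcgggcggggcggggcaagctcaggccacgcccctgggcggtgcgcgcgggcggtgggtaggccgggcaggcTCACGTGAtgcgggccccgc
EBP: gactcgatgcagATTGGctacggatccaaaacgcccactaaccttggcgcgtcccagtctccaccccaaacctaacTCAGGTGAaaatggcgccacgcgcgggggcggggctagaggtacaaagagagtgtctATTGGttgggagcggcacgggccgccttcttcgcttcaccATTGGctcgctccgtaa
SCD: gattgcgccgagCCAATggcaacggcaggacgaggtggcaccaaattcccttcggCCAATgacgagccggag
MSMO1: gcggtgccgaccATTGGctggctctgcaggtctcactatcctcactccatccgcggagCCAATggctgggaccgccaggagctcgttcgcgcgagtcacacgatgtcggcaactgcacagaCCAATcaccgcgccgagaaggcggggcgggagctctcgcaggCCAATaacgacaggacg
FDPS: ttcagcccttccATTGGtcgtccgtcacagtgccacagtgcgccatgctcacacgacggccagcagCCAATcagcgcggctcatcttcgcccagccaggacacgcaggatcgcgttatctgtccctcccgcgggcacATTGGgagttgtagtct

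The SREBF2 stretch holds TCACCCCAC followed by 1 CCAAT box, the INSIG1 stretch holds TCACGTGA near its end, and the EBP stretch holds the same kind of element on the other strand, as TCAGGTGA. TCACNCCAC was in 1 of 28 windows (3.57%), against 1.15% of 10865 windows of genes in the table. TCACNTGA was in 2 of 28 (7.14%), against 4.07%, and CACCCCAC was in 1 of 28 (3.57%), against 2.57%. CCAAT was in 18 of 28 windows (64.3%), against 36.5% of the table's windows, and GGGCGG was in 25 of 28 (89.3%), against 69.8%. Among the 11 windows of genes that were lower in EXT1-/- cells 7 held CCAAT (63.6%), and among the 17 others 11 did (64.7%). GGGCGG was in 11 of the 11 (100%) and in 14 of the 17 others (82.4%). TCACNCCAC and CACCCCAC were each in 1 of the 11 and 0 of the 17, and TCACNTGA was in 1 of each. These differences were not tested. A match describes these letters only; binding was not measured.

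Regulators moved in opposite directions in EXT1-/- cells: SREBF2 was lower and SREBF1 was higher. SREBF2 (chr22:41833079-41907308) had 9277, 8353, 8165 and 9036 normalised counts in EXT1-/- replicates 1 to 4, against 11462, 10433, 10891 and 9724 in WT replicates 1 to 4. Every EXT1-/- library was below every WT library, and the log2 fold change was -0.29 ± 0.07 (SE; limma adjusted p = 0.0120). SREBF1 (chr17:17810399-17837002) had 1982, 1809, 1687 and 2523 in EXT1-/- replicates 1 to 4, against 1429, 1347, 1546 and 1108 in WT replicates 1 to 4. Here every EXT1-/- library was above every WT library, EXT1-/- replicate 4 was the highest and WT replicate 4 the lowest. SREBF1 averaged 2000 ± 369 in EXT1-/- cells and 1358 ± 185 in WT cells (SD, n = 4 each), 46.6% higher, with a log2 fold change of 0.55 ± 0.14 (limma adjusted p = 0.0170). It was the 1 gene of the 32 that was higher. Per kilobase of exon, SREBF2 stood at 1152 in EXT1-/- cells and 1406 in WT cells, and SREBF1 at 249 in EXT1-/- cells and 169 in WT cells, so SREBF2 had the higher level in both.

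INSIG1, which encodes a retention protein of the SREBP complex and is itself an SREBP target, fell to 2001, 1771, 1876 and 1757 in EXT1-/- replicates 1 to 4, against 1927, 2227, 2222 and 2390 in WT replicates 1 to 4. The groups overlapped through WT replicate 1, and the log2 fold change was -0.24 ± 0.08 (limma adjusted p = 0.0425). The INSIG1 call was lost without any one of EXT1-/- replicates 2, 3 and 4 or WT replicates 2, 3 and 4, with adjusted p between 0.0721 and 0.112; over all alternatives the range was 0.00222 to 0.112. It was also lost with values as CPM of the library total (0.0618) and without limma's trend (0.0585). STARD4, a carrier that moves cholesterol between membranes, had 1088, 1506, 1482 and 949 in EXT1-/- replicates 1 to 4, against 1285, 2119, 2116 and 2176 in WT replicates 1 to 4. In both groups the libraries of the high mitochondrial set were the low ones. STARD4 had the most negative log2 fold change of the 32 genes, -0.61 ± 0.21, yet it did not pass (limma adjusted p = 0.0534).

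The mevalonate and isoprenoid arm held 8 genes, of which 1 (12.5%, where 16.8% of all genes were lower) was lower and 7 were not called; the median log2 fold change was -0.20. FDPS, which makes farnesyl diphosphate, had 5086, 5017, 5150 and 4845 normalised counts in EXT1-/- replicates 1 to 4, against 5668, 6099, 6499 and 6960 in WT replicates 1 to 4. The groups did not overlap, and the log2 fold change was -0.32 ± 0.07 (limma adjusted p = 0.00650). The annotation names 8 pseudogenes of FDPS, which could share its reads.

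HMGCS1, the synthase that joins acetoacetyl-CoA and acetyl-CoA (chr5:43289395-43313512), had 5049, 6687, 6870 and 4595 in EXT1-/- replicates 1 to 4, against 5838, 8633, 8524 and 9716 in WT replicates 1 to 4. The groups overlapped: WT replicate 1 lay below EXT1-/- replicates 2 and 3. HMGCS1 averaged 5800 ± 1147 in EXT1-/- cells and 8178 ± 1650 in WT cells (SD, n = 4 each), a log2 fold change of -0.49 ± 0.18 that did not pass (limma adjusted p = 0.0700). GGPS1, which makes geranylgeranyl diphosphate and overlaps TBCE on its own strand, had 1634, 1888, 1934 and 1645 in EXT1-/- replicates 1 to 4, against 1892, 2120, 2107 and 2147 in WT replicates 1 to 4. Only EXT1-/- replicate 3 reached into the WT range, and the log2 fold change was -0.22 ± 0.08 (limma adjusted p = 0.0552).

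The other 5 genes of the arm did not pass. ACAT2, the cytosolic thiolase that starts the route, and IDI1, the isomerase of isopentenyl diphosphate, had log2 fold changes of -0.18 and -0.16, and PMVK, the second mevalonate kinase, had -0.21. MVK, the first mevalonate kinase, and MVD, the decarboxylase, had positive values of 0.10 and 0.12. Summed over the arm, EXT1-/- replicates 1 to 4 held 19556, 22129, 22526 and 18462 normalised counts, against 20507, 25798, 26492 and 28697 in WT replicates 1 to 4. WT replicate 1 lay inside the EXT1-/- range, and the libraries of the high mitochondrial set held the 3 lowest sums.

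The squalene and sterol arm held 11 genes, of which 4 (36.4%, where 16.8% of all genes were lower) were lower and 7 were not called. The median log2 fold change was -0.23. FDFT1, squalene synthase and the first step committed to sterols, had 7056, 6372, 6654 and 6609 in EXT1-/- replicates 1 to 4, against 8371, 8480, 8751 and 8912 in WT replicates 1 to 4. The groups were far apart, and the log2 fold change was -0.37 ± 0.05 (limma adjusted p = 0.000620). CYP51A1, the lanosterol demethylase, had 2310, 2520, 2655 and 2114 in EXT1-/- replicates 1 to 4, against 2652, 3290, 3395 and 3739 in WT replicates 1 to 4. The groups touched, with EXT1-/- replicate 3 just above WT replicate 1; the log2 fold change was -0.44 ± 0.11 (limma adjusted p = 0.0171), and 3 pseudogenes are annotated for it. Without WT replicate 3, CYP51A1 had an adjusted p of 0.0501, the highest in a range from 0.000542 over all alternatives.

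MSMO1, the methylsterol oxidase, had 2994, 3139, 3404 and 2745 in EXT1-/- replicates 1 to 4, against 3271, 4154, 4008 and 4378 in WT replicates 1 to 4. EXT1-/- replicate 3 lay above WT replicate 1, and the log2 fold change was -0.36 ± 0.10 (limma adjusted p = 0.0256). This call was lost without any one of EXT1-/- replicates 1 and 4 or WT replicates 2, 3 and 4, with adjusted p between 0.0629 and 0.0756 in a range from 0.00128. SC5D, the sterol desaturase, had 2560, 2556, 2589 and 2503 in EXT1-/- replicates 1 to 4, against 2902, 2960, 2971 and 3118 in WT replicates 1 to 4. The groups did not overlap, and the log2 fold change was -0.23 ± 0.05 (limma adjusted p = 0.00567); the call was lost once trends with GC and length were taken out (-0.13, adjusted p = 0.118).

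DHCR7, the reductase of the last steps, had 2727, 2157, 2264 and 2640 in EXT1-/- replicates 1 to 4, against 3091, 2746, 2817 and 2759 in WT replicates 1 to 4. The groups did not overlap, but the log2 fold change of -0.23 ± 0.09 did not pass (limma adjusted p = 0.0761). SQLE, the squalene epoxidase at a controlled step, had 5443, 4446, 4379 and 5099 in EXT1-/- replicates 1 to 4, against 5540, 5298, 5179 and 5624 in WT replicates 1 to 4. EXT1-/- replicate 1 reached into the WT range, and the log2 fold change was -0.17 ± 0.08 (limma adjusted p = 0.142). The remaining 5 genes did not pass either. HSD17B7, a sterol ketone reductase whose 2 annotated pseudogenes could share its reads, had a log2 fold change of -0.33, NSDHL, the sterol dehydrogenase, had -0.09, and EBP, the sterol isomerase, had -0.08. LSS, the cyclase that makes lanosterol, and TM7SF2, a sterol reductase, had 0.03 and 0.02.

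The fatty acid arm held 9 genes, of which 5 (55.6%, where 16.8% of all genes were lower) were lower and 4 were not called. The median log2 fold change was -0.16. Across this arm, the mevalonate arm and the sterol arm, limma called 0 genes higher, where 15.2% of all genes were higher. At an unadjusted p under 0.05, 0 were higher. All 5 that were lower had groups that did not overlap (55.6% of the arm, where 17.2% of all genes had lower values without overlap). SCD, the desaturase that makes oleate and palmitoleate (chr10:100347124-100364834), had 31801, 30455, 30898 and 30996 in EXT1-/- replicates 1 to 4, against 42652, 43114, 43244 and 44695 in WT replicates 1 to 4. It averaged 31038 ± 561 in EXT1-/- cells and 43426 ± 883 in WT cells (SD, n = 4 each), 28.5% lower, with a log2 fold change of -0.48 ± 0.04. This was the smallest adjusted p of the 32 genes (limma, 5.7e-05). The annotation names 1 pseudogene, SCDP1, which could share its reads. ELOVL6, the elongase of saturated chains (chr4:110045846-110199199), had 3278, 2896, 2931 and 3050 in EXT1-/- replicates 1 to 4, against 4603, 4252, 4336 and 4728 in WT replicates 1 to 4. It was 32.2% lower, with a log2 fold change of -0.56 ± 0.06 (limma adjusted p = 0.000169).

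ACSS2, the cytosolic synthetase that makes acetyl-CoA from acetate (chr20:34872146-34927962), had 458, 412, 435 and 387 in EXT1-/- replicates 1 to 4, against 662, 635, 604 and 633 in WT replicates 1 to 4. The EXT1-/- values were all well below the WT values, and the log2 fold change was -0.58 ± 0.07 (limma adjusted p = 0.000321). ACLY, which makes acetyl-CoA from citrate in the same compartment, had 12321, 11549, 11344 and 11791 in EXT1-/- replicates 1 to 4, against 12292, 11896, 11435 and 11602 in WT replicates 1 to 4. Its groups lay over each other, and its log2 fold change was -0.01 ± 0.05 (limma adjusted p = 0.930). ACACA, the carboxylase that makes malonyl-CoA, had 5207, 5942, 5547 and 5187 in EXT1-/- replicates 1 to 4, against 6188, 6608, 6528 and 6947 in WT replicates 1 to 4. The groups did not overlap, and the log2 fold change was -0.26 ± 0.06 (limma adjusted p = 0.0115).

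FASN, the synthase that uses malonyl-CoA, had 12485, 11414, 9763 and 14804 in EXT1-/- replicates 1 to 4, against 11167, 11284, 12969 and 8866 in WT replicates 1 to 4. The spread within groups was wider than the difference between them, with a log2 fold change of 0.13 ± 0.15 (limma adjusted p = 0.545). FADS1, the delta-5 desaturase of polyunsaturated chains, had 8994, 8806, 9061 and 9147 in EXT1-/- replicates 1 to 4, against 9585, 10076, 10104 and 10556 in WT replicates 1 to 4. The difference was small but without overlap, with a log2 fold change of -0.16 ± 0.05 (limma adjusted p = 0.0286). Its call was lost without any one of EXT1-/- replicates 1, 2 and 3 or WT replicates 2, 3 and 4, with adjusted p between 0.0588 and 0.0829 in a range from 0.00391, and with values as CPM of the library total (0.0524). FADS2, the delta-6 desaturase, lies across FADS1 on the opposite strand, and whether counting used the strand is not given in the sources used here. It had 11163 to 13912 in EXT1-/- libraries and 11677 to 13777 in WT libraries, with a log2 fold change of 0.03 (limma adjusted p = 0.809). LPIN1, a phosphatidate phosphatase of glycerolipid synthesis, had 589 to 622 in EXT1-/- libraries and 556 to 617 in WT libraries, with a log2 fold change of 0.04 (limma adjusted p = 0.667).

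Altogether the groups did not overlap for 11 of the 32 genes, 10 of them lower in EXT1-/- cells (31.25%, where 17.2% of all genes had lower values without overlap) and 1 higher (where 16.3% of all genes had higher values without overlap). For each of the 11, an exact permutation test (two-sided, 70 divisions of the libraries) gave p = 0.0286, the smallest it can give. Any gene whose groups do not overlap must give this p in this test. The value therefore repeats the lack of overlap and adds no evidence for the 11. The genes also differed in level. Per kilobase of exon, SCD ranked first with 5788 in EXT1-/- cells and 8099 in WT cells, followed by ACLY with 2252 in EXT1-/- cells and 2263 in WT cells. LPIN1 ranked last, with 50.9 in EXT1-/- cells and 49.7 in WT cells. No gene was near the limit of the table: the lowest single value was 387, which is 9.67 CPM.

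**Figure D2:**
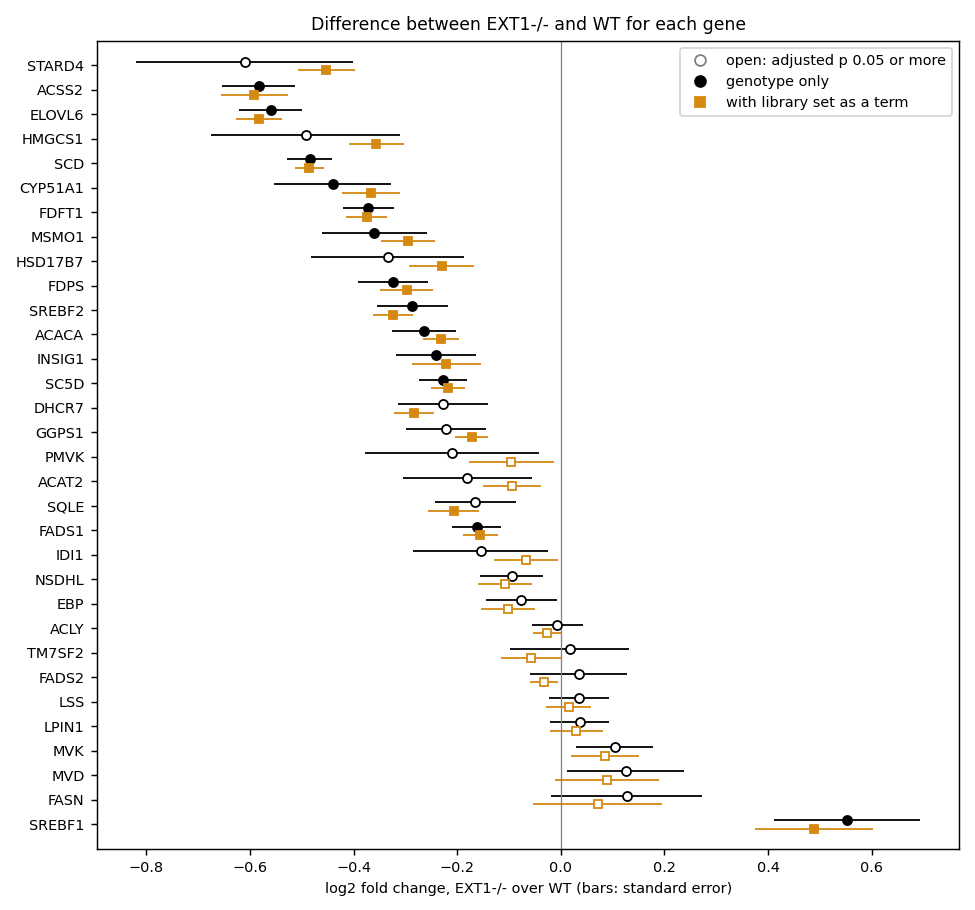
Log2 fold change of each gene, EXT1-/- over WT, with standard errors, without (black) and with (orange) library set as a term; filled symbols have an adjusted p under 0.05. The values run from -0.61 for STARD4 to 0.55 for SREBF1, and 6 genes that are open in black are filled in orange.

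The division of the libraries by mitochondrial share ran through these genes unevenly. Within genotypes, libraries of the high set had lower STARD4 (log2 difference -0.63), HMGCS1 (-0.55), PMVK (-0.46), HSD17B7 (-0.42), IDI1 (-0.35) and ACAT2 (-0.34) than libraries of the low set. They had higher TM7SF2 (0.30), FADS2 (0.26), SREBF1 (0.25), DHCR7 (0.23) and FASN (0.22). In both genotypes 12 of the 32 genes lay below 0 in this difference, in both genotypes 11 lay above 0, and for 9 the sign differed. SCD, with a difference of 0.00, and ACSS2, with 0.03, hardly moved with the set. These are descriptions of sets found from the data, and the high set holds 1 WT library.

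With library set as a term, 18 of the 32 genes were lower in EXT1-/- cells (56.25%, where 25.6% of all genes were lower) and 1 was higher (where 26.2% of all genes were higher). The 12 lower genes remained lower, and HMGCS1, STARD4, GGPS1, HSD17B7, SQLE and DHCR7 were added. HMGCS1 then had a log2 fold change of -0.36 ± 0.05 (limma adjusted p = 0.000465), and STARD4 had -0.45 ± 0.05 (0.000124). DHCR7 had -0.28 ± 0.04 (limma adjusted p = 0.000231), SQLE -0.21 ± 0.05 (0.00682), GGPS1 -0.17 ± 0.03 (0.00184) and HSD17B7 -0.23 ± 0.06 (0.0131). SREBF1 kept its direction, with 0.49 ± 0.11 (limma adjusted p = 0.00599). Within the low set alone, 2 EXT1-/- and 3 WT libraries, 20 genes were lower (62.5%, where 24.1% of all genes were lower) and 1 was higher (where 20.9% of all genes were higher). Of the 32 genes, 21 had negative differences in each set, the high set holding 1 WT library. They include all 12 genes called lower over the 8 libraries, but those calls came from the same libraries.

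Leaving out WT replicate 1, the 1 WT library of the high set, gave 18 lower genes, where 19.9% of all genes were lower, and leaving out WT replicate 3 gave 8, where 13.4% of all genes were lower. Without WT replicate 1, limma adjusted p was 0.0108 for HMGCS1, 0.00671 for STARD4, 0.0180 for PMVK, 0.00883 for HSD17B7, 0.0262 for GGPS1 and 0.0414 for ACAT2. STARD4 also passed without EXT1-/- replicate 2 (0.0475) or 3 (0.0482), GGPS1 without EXT1-/- replicate 3 (0.0389) and DHCR7 without EXT1-/- replicate 1 (0.0456). Over all alternatives the adjusted p of HMGCS1 ran from 0.000465 to 0.173 and that of STARD4 from 8.17e-05 to 0.133.

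Differences also followed base composition. Across the 32 genes, the genotype difference had a Spearman rho of 0.64 with the GC content of the longest transcript, and the difference between library sets had 0.68; over 15768 genes the values were 0.23 and 0.51. The points share the same 8 libraries, so these are descriptions. The 15 genes under 50% GC had a median log2 fold change of -0.33, and the 17 others had a median of -0.08. Other genes of like GC content were not summarised, so these medians cannot be set against them. With GC and length trends removed from each library, a setting chosen after seeing the data, 14 genes were lower (where 17.7% of all genes were) and 1 was higher (where 21.6% were). FASN then changed sign to -0.20 and was called lower (limma adjusted p = 0.0243), where its adjusted p ran from 0.0243 to 0.921 over all alternatives. In the same setting SC5D lost its call, as given above, and INSIG1 moved to -0.16 (0.0861) and FADS1 to -0.15 (0.0743), and both calls were lost. SREBF1 moved to 0.34 and MSMO1 to -0.22, and both kept their call (adjusted p = 0.00155 and 0.00533). SCD with -0.43, ELOVL6 with -0.50 and SREBF2 stayed lower. HMGCS1 (adjusted p = 0.0389), STARD4 (0.0136), GGPS1 (0.0446) and DHCR7 (0.00278) were called lower in that setting. The part of base composition in the results was not tested beyond this.

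**Figure D3:**
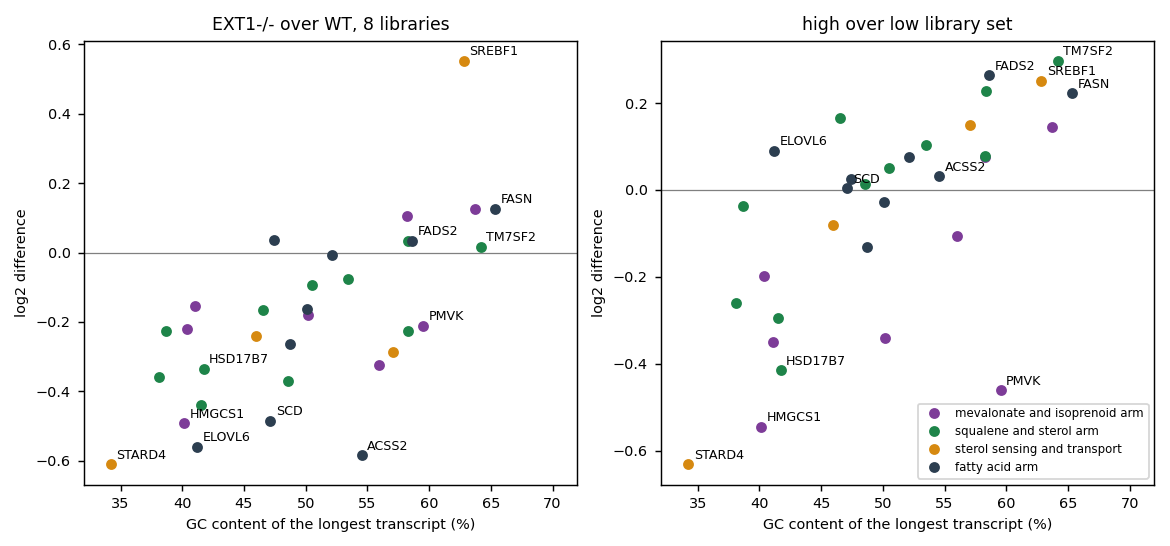
Log2 difference of each gene between EXT1-/- and WT (left) and between the high and the low library set (right), against the GC content of its longest transcript in percent, coloured by role. STARD4 is the lowest point of both panels (-0.61 on the left, -0.63 on the right) and HMGCS1 is low in both (-0.49 and -0.55), while ACSS2, ELOVL6 and SCD are low on the left only.

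The authors' deposited table, from a generalised linear model in edgeR, calls 11 of the 32 genes lower (where 13.6% of all genes are) and 1 higher (where 12.6% of all genes are). Of these, 10 were called with the same sign here. The authors' deposited table adds HMGCS1 (FDR 0.0116) and STARD4 (FDR 0.00369) to the lower genes, and it does not call SC5D, INSIG1 and FADS1.

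Genes around the pathway were read from lists that share no gene with the 32. Their counts stand against 15.2% higher and 16.8% lower over all genes, or 26.2% and 25.6% with library set as a term. Of 9 genes that process SREBP, limma called 1 higher and 0 lower (2 higher and 0 lower at an unadjusted p under 0.05), with a median log2 fold change of -0.12. It was MBTPS1, the site-1 protease that makes the first cut, with 2960 ± 239 in EXT1-/- cells and 2365 ± 134 in WT cells (SD, n = 4 each; log2 fold change 0.32, limma adjusted p = 0.00935). SCAP, the escort protein, had 0.08 and INSIG2, the second retention protein, had -0.49; neither passed (limma adjusted p = 0.659 and 0.167). With library set as a term INSIG2 was lower (-0.31, adjusted p = 0.0248), as it was in the low set alone (-0.44, adjusted p = 0.00413), and the list then had 2 higher and 1 lower.

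Sterol uptake, storage and trafficking held 14 genes, of which 2 were higher and 5 were lower (4 and 5 with library set as a term), with a median log2 fold change of 0.00. VLDLR, a lipoprotein receptor, averaged 1012 ± 148 in EXT1-/- cells and 2450 ± 292 in WT cells (SD, n = 4 each), with a log2 fold change of -1.28 (limma adjusted p = 8.66e-05). LRP8, a receptor of the same family, averaged 2032 ± 40.1 in EXT1-/- cells and 3451 ± 109 in WT cells, with -0.76 (limma adjusted p = 7.3e-06). LIPA, the lysosomal lipase that frees cholesterol from its esters, averaged 377 ± 32.3 in EXT1-/- cells and 856 ± 71.8 in WT cells, with -1.18 (limma adjusted p = 1.89e-05). These 3 falls were larger than any among the 32 synthesis genes. SCARB1, the HDL receptor, and TMEM97, a sterol-regulated membrane protein, were also lower (-0.54 and -0.36), while SOAT1, which esterifies cholesterol, and GRAMD1B, a sterol transfer protein, were higher (0.94 and 0.29).

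For LXR, the nuclear receptor that senses oxysterols, and sterol efflux, 5 of 7 genes were in the table; limma called 2 higher and 0 lower (1 lower at an unadjusted p under 0.05), with a median of 0.26. With library set as a term 3 were higher and 1 was lower. ABCA1, the cholesterol exporter, had 300, 345, 337 and 348 normalised counts in EXT1-/- replicates 1 to 4, against 146, 174, 158 and 141 in WT replicates 1 to 4. The 2 groups were far apart, with a log2 fold change of 1.10 (limma adjusted p = 4.01e-05). NR1H2, which encodes LXR beta, had 1283, 1108, 1022 and 1332 in EXT1-/- replicates 1 to 4, against 834, 803, 859 and 657 in WT replicates 1 to 4, with 0.59 (limma adjusted p = 0.00430). Neither gene's groups overlapped. NR1H3, which encodes LXR alpha, went the other way, with -0.22, and did not pass (limma adjusted p = 0.113). With library set as a term NR1H3 was lower (-0.27, adjusted p = 0.00748), as in the low set alone (-0.33, adjusted p = 0.0150).

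Other genes of fatty acid synthesis and elongation, 21 of 25 in the table, had 7 lower and 2 higher members (10 and 3 with library set as a term) and a median of -0.17. ELOVL5, an elongase of polyunsaturated chains, averaged 8235 ± 371 in EXT1-/- cells and 10978 ± 155 in WT cells (SD, n = 4 each; log2 fold change -0.42, limma adjusted p = 0.000262). HSD17B12, the ketoacyl reductase of the elongation cycle, averaged 4139 ± 149 in EXT1-/- cells and 5640 ± 323 in WT cells, with -0.44 (limma adjusted p = 0.000477). ACSL6, an acyl-CoA synthetase, had 6 to 32 in EXT1-/- libraries and 66 to 143 in WT libraries, with -2.48 (limma adjusted p = 0.00479). Of its group means only that of WT is above 1 CPM, so its place in the table rests on the WT libraries.

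**Figure D4:**
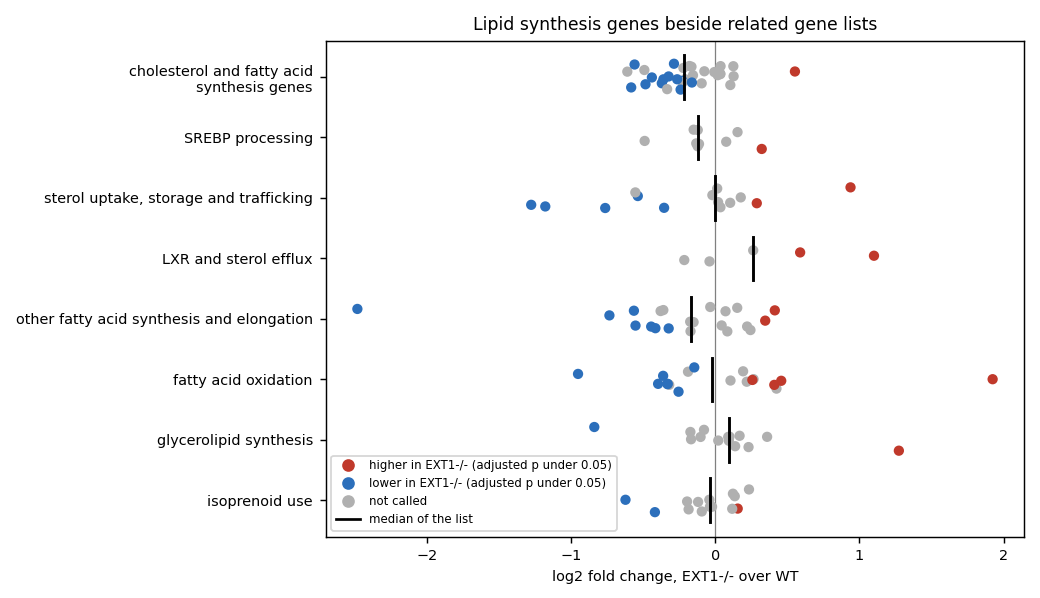
Log2 fold change, EXT1-/- over WT, of each gene of the 32 and of 7 related lists, with list medians as vertical bars and calls coloured. The 32 synthesis genes lie between -0.61 and 0.55, while VLDLR (-1.28), LIPA (-1.18) and ABCA1 (1.10) lie outside that range.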

How the data were processed

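Total RNA was sequenced in 4 EXT1-/- and 4 WT libraries with a stranded total RNA kit, per the labels' protocols. Per the submitters' processing notes, STAR, RSEM and edgeR were used with GRCh38.p10; versions are not given in the sources used here. The authors deposited 1 table: a normalised signal per library, in whole numbers scaled to near-equal library sizes and not raw counts, and, per gene, the fold change and mean CPM on a log2 scale, the score of a likelihood ratio test, its p-value and the FDR. The signal values are called normalised counts. Genes were left out of the table unless at least 2 libraries had about 1 CPM, judged from its values. Raw depth is unknown, so no counting intervals are given, and the scaling hides differences in total RNA.

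Here log2(value + 1) of all 15811 genes was fitted with limma 3.58.1 (R 4.3.3) with an intensity trend and genotype as the only term; p-values were adjusted by Benjamini-Hochberg over all genes, and 0.05 was the threshold. Requiring 1 group's mean to reach 1 removed no gene. All fold changes printed use this log2 scale, which understates changes of low genes. Single genes had an exact permutation test in Python 3.11.15 with scipy 1.17.1. Coordinates, GC content and exon length came from GENCODE 29, matched for 15777 genes (99.8%). Besides the overlaps named above, coding genes overlap CYP51A1, TM7SF2 (VPS51) and FADS2 (FEN1) on their own strand. On the opposite strand, coding genes overlap ACAT2 (SOD2 and TCP1), MVK (MMAB), GGPS1 (ARID4B), SREBF1 (RAI1), ACSS2 (GGT7) and ACACA (C17orf78). Whether reads were shared was not tested. Alternatives were other scalings, filters, pseudocounts and weights, a replicate block, the library set as a term, the low set alone, each library left out, and, chosen after seeing the data, removal of GC and length trends. The 32 genes, the related lists and the marker lists were chosen with earlier results of these data known. All 32 genes are described, and in each related list the 3 or fewer called genes with the smallest adjusted p are given in full. Genes named outside that rule (SCAP, INSIG2, SCARB1, TMEM97, SOAT1, GRAMD1B and NR1H3) were chosen after their values were seen. The labels give both groups replicate numbers 1 to 4, and whether these pair the libraries could not be told from the values.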

Additional observations from a re-analysis of the deposited data

Results flagged for a closer look

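Dixon's test was applied to the 4 libraries of both groups for each of the 32 genes, and chance passes it in about 1 group in 20. By this test 4 values stood apart from the other 3 of their group. At that rate, a few such values are expected by chance among so many groups. All 4 belong to WT replicate 1, the WT library of the high mitochondrial set. It had the lowest WT value of PMVK, 406 normalised counts, of GGPS1, 1892, and of STARD4, 1285, and the highest WT value of FADS2, 13777. The gap to the nearest library was 0.859 of the group's range for PMVK, 0.843 for GGPS1, 0.933 for STARD4 and 0.907 for FADS2. The EXT1-/- libraries of the same set showed the same order for STARD4, with 1088 and 949 in replicates 1 and 4 and 1506 and 1482 in replicates 2 and 3. The part of the library set in these values was not tested.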

How the results depend on the processing

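The median log2 fold change of the 32 genes stayed negative in all 22 alternatives, and 7 of the 13 called genes (FDPS, FDFT1, SREBF2, ACSS2, ACACA, SCD and ELOVL6) kept their call in each of them, as 10 of the 19 others kept theirs. Leaving out 1 library at a time gave 8 to 18 lower genes, 1 to 1 higher genes and a median from -0.26 to -0.17. The 8 came without WT replicate 3, where 13.4% of all genes were lower. The 18 came without WT replicate 1, where 19.9% of all genes were lower. The low mitochondrial set alone gave 20 lower genes (where 24.1% of all genes were lower) against 12 over all libraries (where 16.8% were). FASN turned to -0.20 with GC and length trends removed; the cause was not tested. With the replicate block, 15 genes were lower and 0 were higher, since SREBF1 had a limma adjusted p of 0.0509 (1 gene was higher at an unadjusted p under 0.05), and INSIG1 also lost its call (0.0891). The shares of all genes called with the replicate block are not given here, so these counts cannot be set against them. The deviations of same-numbered libraries had r of 0.783, 0.438, 0.260 and -0.654. Between the genotypes, every r of libraries in the same mitochondrial set was positive and every r across the sets was negative. Replicate 4 is in the high set in EXT1-/- and in the low set in WT. These r therefore cannot tell whether the numbers pair the samples, and the main fit used no pairing. Over all genes, 2405 were higher and 2658 lower with genotype only, and 4142 higher and 4053 lower with library set as a term. Normalised values hide raw depth, and 4 libraries a group in 2 sets limit what small differences can show.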

Other observations

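Lists that use or burn the products of these pathways held genes that were higher and genes that were lower in EXT1-/- cells. Over all genes 15.2% were higher and 16.8% lower, or 26.2% and 25.6% with library set as a term. Of 18 genes of fatty acid oxidation, 4 were higher (22.2%) and 7 were lower (38.9%), or 7 and 8 with the set term, with a median log2 fold change of -0.02. CPT1A, the liver-type carnitine transferase that admits fatty acids to mitochondria, averaged 230 ± 15.5 normalised counts in EXT1-/- cells and 448 ± 54.2 in WT cells (SD, n = 4 each; log2 fold change -0.95, limma adjusted p = 0.000157). HADH, a dehydrogenase of the oxidation cycle, averaged 1980 ± 76.9 in EXT1-/- cells and 2546 ± 124 in WT cells, with -0.36 (limma adjusted p = 0.00139). PPARGC1A, a coactivator of mitochondrial genes, had 110 to 120 in EXT1-/- libraries and 27 to 32 in WT libraries, with 1.92 (limma adjusted p = 7.71e-06). Its WT mean is below 1 CPM, so its place in the table rests on the EXT1-/- libraries.

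Of 14 genes of glycerolipid synthesis, 1 was higher and 1 was lower (7.14% each), with a median of 0.09; with library set as a term 5 were higher and 1 was lower. DGAT2, which makes triglyceride, had 119, 132, 94 and 133 in EXT1-/- replicates 1 to 4, against 58, 50, 42 and 45 in WT replicates 1 to 4, with a log2 fold change of 1.27 (limma adjusted p = 0.000404). AGPAT3, an acyltransferase, had 208, 178, 201 and 261 in EXT1-/- replicates 1 to 4, against 331, 386, 396 and 397 in WT replicates 1 to 4, with -0.84 (limma adjusted p = 0.000987). Of 14 genes that use isoprenoids, 1 was higher (7.14%) and 2 were lower (14.3%), with a median of -0.04; with library set as a term 2 were higher and 5 were lower. SRD5A3, the polyprenol reductase of dolichol synthesis, averaged 1534 ± 60.4 in EXT1-/- cells and 2362 ± 51.9 in WT cells (log2 fold change -0.62, limma adjusted p = 3.07e-05). PGGT1B, the beta subunit of a geranylgeranyl transferase, was lower with -0.42 (limma adjusted p = 0.00150), and ICMT, which methylates prenylated proteins, was higher with 0.16 (limma adjusted p = 0.0223).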
